A study of Rattus norvegicus with 4 samples.

Results

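Rat hepatic stellate cells transfected with an siRNA against endoglin were compared with stellate cells transfected with a control siRNA. The comparison rests on 2 of the 4 two-colour arrays in the series, chosen as those whose Cy5 RNA is labelled as coming from cells given the endoglin siRNA. One array carried RNA of 1 animal and the other RNA pooled from 3 animals, so the pool is 1 sample and shows no spread among its animals. On both arrays the Cy3 RNA came from cells given the control siRNA, of 1 animal or of a pool in the same way. The other 2 arrays set untreated stellate cells, again 1 animal and a pool of 3, against control siRNA cells and served to estimate the spread. Every ratio below is Cy5 over Cy3 on the log2 scale, so a negative value is a lower level with the endoglin siRNA, and paired values are given in the order 1 animal, then pool. The dyes were not swapped, so an effect of the dye and an effect of the siRNA cannot be told apart in a ratio taken alone. The labels give no strain, sex, age, disease model, days in culture or time after transfection. The sequence of the siRNA was not analysed here. Nor do the labels say whether the single animal was among those pooled or whether arrays shared a control RNA, so p-values measure only the spread between these arrays.

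Endoglin is a membrane glycoprotein that binds ligands of the BMP and TGF-beta family, chiefly BMP9 and BMP10, and hands them to the kinase receptor encoded by Acvrl1 (ALK1) with its partner encoded by Bmpr2. These receptors phosphorylate Smad1 and Smad5, whereas the TGF-beta receptors encoded by Tgfbr1 and Tgfbr2 act mainly through Smad2 and Smad3. Stellate cells wrap the liver sinusoid as pericytes and store vitamin A. In injury or in culture they turn into contractile, matrix-producing myofibroblasts, and TGF-beta is a main driver of that change. An siRNA directs the cleavage of the mRNA it pairs with, so the mRNA of the targeted gene is the first check of the labels.

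Each array held 43379 gene spots, of which 70.2% (1 animal) and 65.7% (pool) stood clearly over background in the Cy5 channel, with 61.9% and 62.1% in the Cy3 channel. The 10 spike-in transcripts, added at known ratios, gave slopes of observed on expected log ratio of 0.904 and 0.911. The measured level of a gene depended on the background estimate of the pooled array. On that array 4 spots had a local background more than 100 intensity units above their signal, and they moved the fitted background mean to -486 in Cy5 and -416 in Cy3, against -11.1 and -17 when they were left out of the fit. With all spots the median absolute deviation of the pooled ratios was 0.0108 in the dimmest of 4 equal bins of genes and 0.252 in the brightest. Without the 4 spots these values were 0.13 and 0.267, close to the 0.123 and 0.243 of the 1-animal array. The untreated pool had 6 such spots, with a fitted background mean of -775 in Cy5 and -102 in Cy3, against -0.0534 and -9.55 without them. Pooled ratios of dim genes were therefore pulled towards 0 in the analysis as designed, and the pooled value from the second background fit, which leaves such spots out of both pools, is given below as the refitted value. Untreated pool values are those of the analysis as designed unless they are called refitted. The normalization within arrays also mattered. With median centring in place of loess, the median ratio rose from -0.218 in the dimmest bin to 1.08 in the brightest, with 0.317 over all genes, against 0.02 over all genes with loess. The mean ratio of the 10 spike-ins was 0.11 and 0.17 with loess and 0.96 and 1.33 with median centring.

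**Figure D1:**
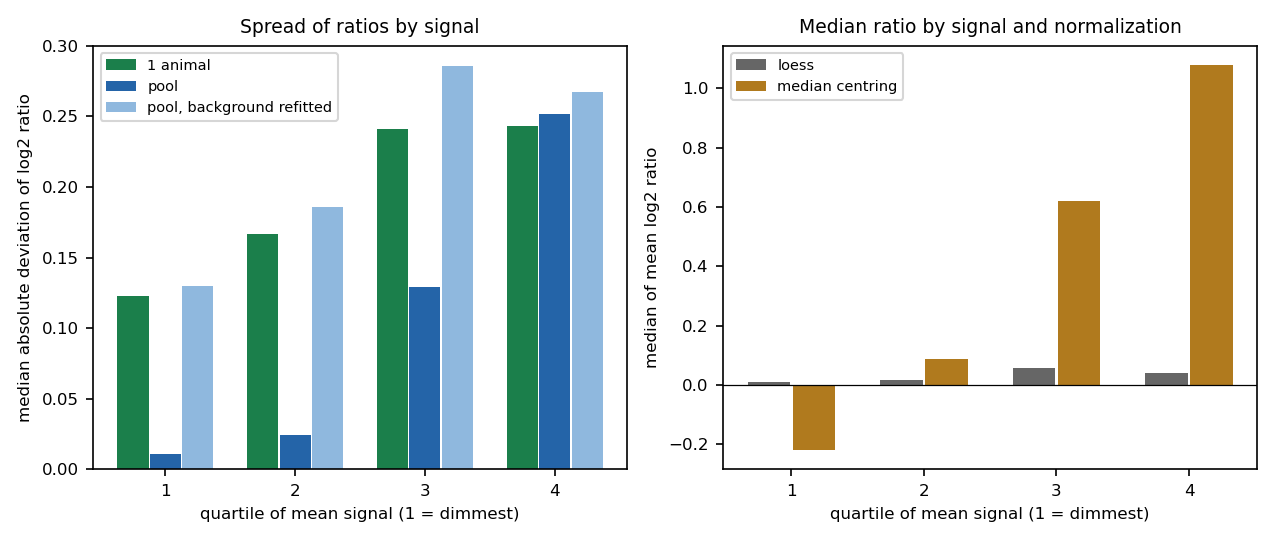
Left, median absolute deviation of the log2 ratios (vertical axis) in 4 equal bins of genes ordered by mean signal (horizontal axis), for the 1-animal array, the pooled array and the pooled array with its background refitted. Right, median of the mean log2 ratio of both arrays in the same bins with loess and with median centring. The bars of the pooled array are near 0 in the 2 dimmest bins and grow once its background is refitted, and median centring gives a ratio that climbs with signal to 1.08.

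The target of the siRNA fell. Eng, measured by 1 probe, had a ratio of -3.08 in the 1-animal RNA and -1.72 in the pooled RNA, or -1.87 in the pool with the refitted background. In untreated cells the ratios of Eng were -0.36 and -0.42. Both endoglin siRNA arrays therefore lay below both untreated arrays, as they did for 11.6% of all genes. The drop was deeper in the 1-animal RNA than in the pool. Averaged over both arrays, Eng stood at -2.40 ± 0.26, which is 5.29-fold lower (limma, adjusted p = 0.0051, and 0.000901 with the refitted background). Each ± and standard error in the text is limma's moderated standard error, which draws on the spread of all 4 arrays and of all genes. It takes in the gap between the 2 endoglin siRNA arrays together with that between the 2 untreated arrays, drawn towards the spread common to all genes. It is therefore not a direct measure of the gap between the endoglin siRNA arrays, which for Eng was wide (-3.08 and -1.72).

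Beyond the target, 2075 of 25513 genes tested (8.13%) passed the test against control siRNA cells, with 1341 higher (5.26%) and 734 lower (2.88%). All 2075 had the same sign on both arrays. Most shifts were small: 1724 of them were under 1.5-fold, and the median size was 0.40 on the log2 scale. The large ones leaned towards lower levels, since 36 genes that fell and 13 that rose had a mean ratio of at least 2-fold. Counted as genes that reached 2-fold on both arrays, the lean turned with Feature Extraction log ratios (166 higher and 136 lower). It also turned with median centring (2383 higher and 0 lower). It was kept without background correction (24 higher and 48 lower), with the refitted background (18 and 39) and with scaling between arrays (1 and 7). In the analysis as designed both arrays reached 2-fold for only 20 genes (0.0784%), 14 lower (0.0549%) and 6 higher (0.0235%). With the refitted background 4147 genes passed (16.3%), 2277 higher and 1870 lower, 1952 of the original 2075 being retained, and both arrays reached 2-fold for 57. Leaving out the 1-animal array gave 882 genes, leaving out the pool gave 2672, and the endoglin siRNA arrays alone gave 1162. Calls were also set by brightness: 0% of the dimmest bin of genes passed, 0.282% of the next, 10.1% of the third and 22.2% of the brightest. No gene passed when median centring replaced loess, although 6178 genes then had an unadjusted limma p under 0.05, and 668 of the 2075 turned their sign.

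The ratios of the 1-animal array were often larger than those of the pool. In the 1-animal RNA 102 genes were at least 2-fold lower, and 98 of them also had a negative ratio in the pool. Of those 102, 14 were 2-fold lower in the pool too, or 39 with its background refitted. Likewise 53 genes were at least 2-fold higher in the 1-animal RNA, of which 51 were positive in the pool and 6 reached 2-fold there, or 18 after refitting. Across all genes tested, which are not independent replicates, the ratios of both arrays had a Pearson correlation of 0.63, and 0.711 after refitting.

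**Figure D2:**
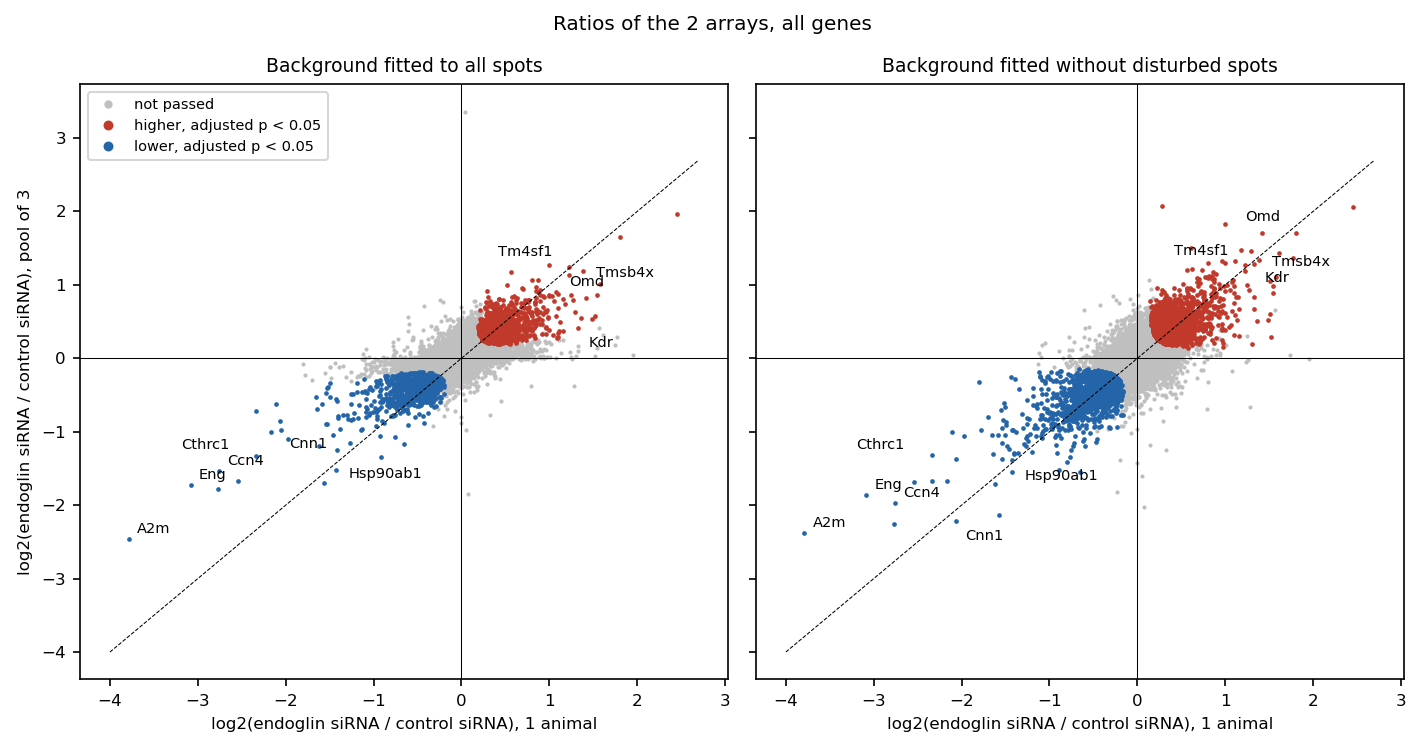
Each point is 1 of 25513 genes, with its log2 ratio of endoglin siRNA to control siRNA in the 1-animal RNA (horizontal axis) and in the pooled RNA (vertical axis). Red and blue mark genes that passed the test with a higher or lower level, grey all others, and the dashed line marks equal ratios. Left is the analysis as designed and right the one with the background refitted, where genes such as Cnn1 (-2.06 and -2.21) and Kdr (1.33 and 1.29) move towards the line of equal ratios.

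The untreated arrays give the ratios of cells that received no siRNA, in the direction the labels give for their dyes. Of the 1341 higher genes, 1101 (82.1%) lay above both untreated arrays on both endoglin siRNA arrays, where 24.4% of all genes did. Of the 734 lower genes, 479 (65.3%) lay below both untreated arrays, where 11.6% of all genes did. The genes were chosen by their endoglin siRNA ratio, so nothing is read from the excess over these backgrounds. With the sign of both untreated arrays turned, as in the deposited table of processed ratios, the shares were 99.8% and 99%, beside 32.1% and 24.1% of all genes. With the refitted background they were 72.4% and 82.4%, beside 24% and 18.5%. The higher genes had a median ratio of 0.372 with endoglin siRNA and 0.142 in untreated cells, and the lower genes one of -0.462 and -0.252.

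The lowest mean ratio was that of A2m, which encodes alpha-2-macroglobulin, a broad protease inhibitor that also binds growth factors. Its ratio was -3.79 in the 1-animal RNA and -2.46 in the pool, against -0.31 and 0.37 in untreated cells. Its level was 8.71-fold lower (mean -3.12 ± 0.28, adjusted p = 0.00417). A separate array entry, M84368, described as a fragment of rat alpha-2-macroglobulin mRNA and without a current symbol, was also 2-fold lower on both arrays at -2.77 and -1.78. The probe for A2m is placed on chromosome 4, 158398254 to 158398313, in a genome build that the array files do not name. Secreted proteins of the matrix followed. Ccn4 (Wisp1), a matricellular protein first found as a Wnt target, stood at -2.76 and -1.53 (refitted -1.98), a 4.43-fold lower mean. Cthrc1, a secreted protein with a short collagen-like repeat, stood at -2.34 and -1.33, or 3.56-fold lower. Their untreated ratios lay between -0.36 and 0.04, well apart from the endoglin siRNA arrays. Serpinf1, which encodes the antiangiogenic serpin PEDF, fell by 1.21 with ratios of -1.54 and -0.89 and was positive in untreated cells (0.19 and 0.40). Ptgis, the prostacyclin synthase, fell by 1.46 with a wide gap between the arrays, -2.06 and -0.86. Nptx2, a secreted pentraxin, stood at -1.46 and -1.04. Them5, an acyl-CoA thioesterase gene, stood at -1.62 and -1.19, but its second probe gave a mean of 0.24.

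**Figure D3:**
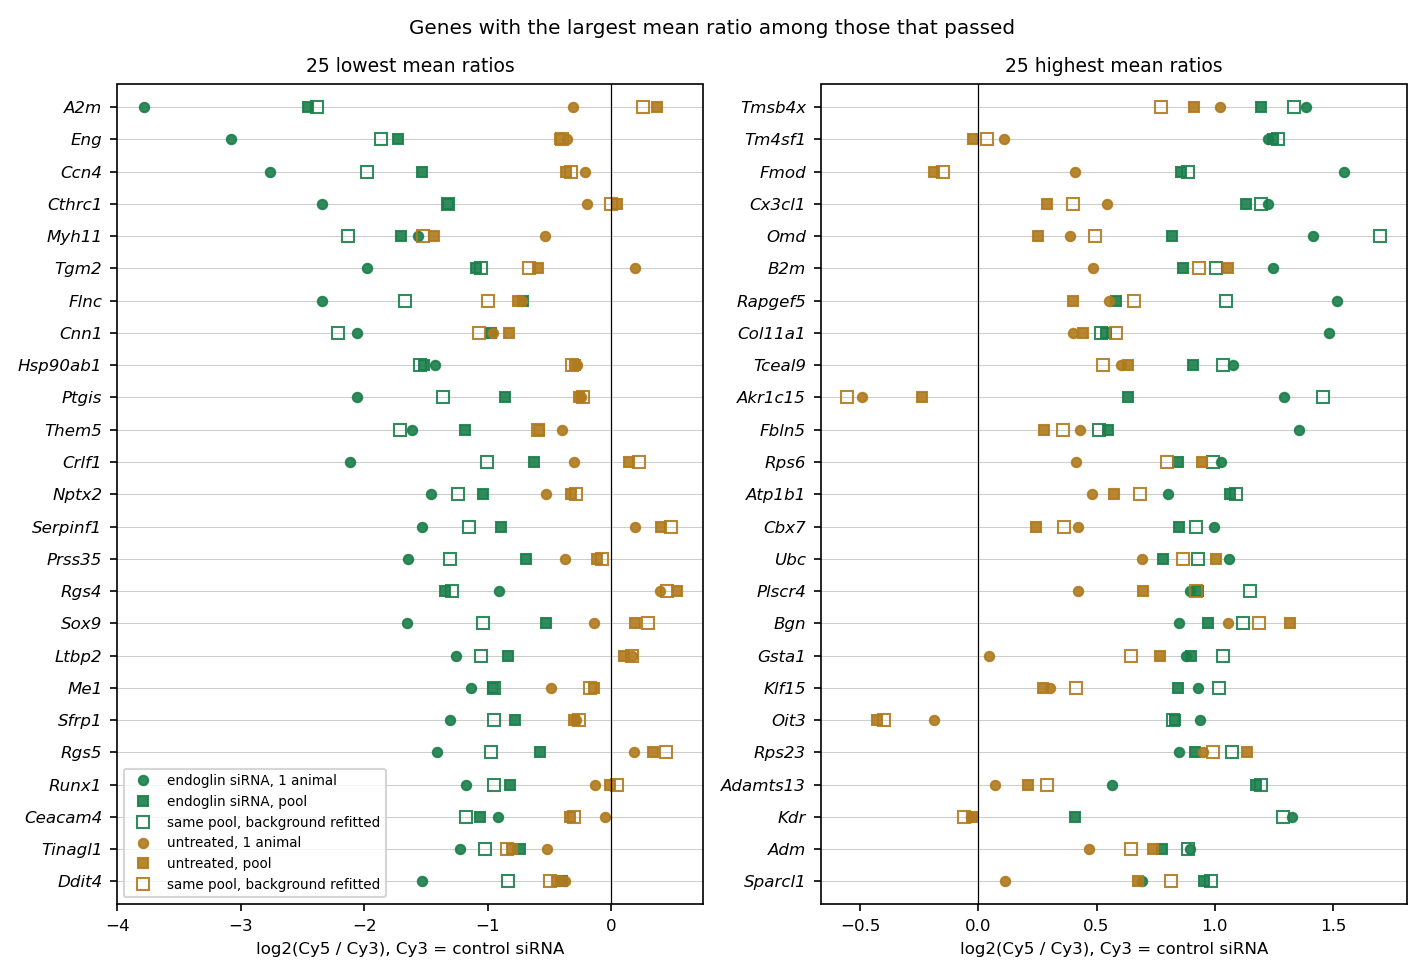
Log2 ratios to control siRNA cells (horizontal axis) of the 25 genes with the lowest (left) and the 25 with the highest (right) mean ratio among genes with a symbol that passed. Green marks the endoglin siRNA arrays and ochre the untreated arrays, circles the 1-animal RNA and squares the pools, and open squares the pool of the same colour with the background refitted. A2m and Eng stand far to the left of their untreated points, whereas for Tmsb4x (1.02 and 0.91) and Bgn (1.05 and 1.32) the untreated ratios are high as well.

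Hsp90ab1, the constitutive cytosolic HSP90 chaperone, fell with little difference between the arrays. Its ratios were -1.42 and -1.52 against -0.27 and -0.29 in untreated cells, a 2.77-fold lower level (standard error of the mean log2 ratio 0.06, adjusted p = 0.000903). A second Hsp90ab1 probe gave -1.19 and -0.98. Also lower were 4 array entries described as similar to the same protein, which may share its sequence and are not independent of it. They are XM_226259 at -1.54 and -0.90, ENSRNOT00000037938 at -1.42 and -1.24, LOC299524 at -1.40 and -0.81, and XM_217339 at -1.35 and -0.77. The inducible paralogue Hsp90aa1 had ratios of -0.03 and 0.30 and did not pass (adjusted p = 0.416). Of 26 measured cytosolic chaperones and heat shock genes, 2 fell and 3 rose, or 6 and 3 with the refitted background. Their median was -0.02, that of all genes 0.02, and median centring turned it to 1.05. The co-chaperone gene Bag3 fell by 0.32, and the small heat shock protein gene Cryab rose by 0.31.

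Genes for regulators of G protein signalling, which speed up the shut-off of G alpha subunits, fell in a pair that lies close together. Rgs4 had ratios of -0.91 and -1.35, and its second probe gave -1.07 and -0.89. Rgs5, a marker of pericytes, had ratios of -1.42 and -0.58 (refitted -0.97). In untreated cells both genes had positive ratios, 0.39 and 0.53 for Rgs4 and 0.19 and 0.34 for Rgs5, so the groups did not overlap. Both endoglin siRNA arrays also lay below both untreated arrays for 11.6% of all genes and 65.3% of the genes that passed as lower. The mean was -1.13 ± 0.10 for Rgs4 and -1.0 ± 0.17 for Rgs5, although median centring turned Rgs4 to 0.24. In the RefSeq annotation of the rat assembly GRCr8 their start sites are 94.8 kb apart on chromosome 13, on opposite strands that run towards each other. The 250 bases before each start are shown because these neighbours fell together. They are given 5′ to 3′ in the direction of the gene, with the CCAAT box, the TATA box (TATAAA) and a Smad-binding element (CAGACA) in capitals on either strand, so that ATTGG is CCAAT read on the other strand.
Rgs4 (GRCr8, chr13:84475885-84476134, minus strand): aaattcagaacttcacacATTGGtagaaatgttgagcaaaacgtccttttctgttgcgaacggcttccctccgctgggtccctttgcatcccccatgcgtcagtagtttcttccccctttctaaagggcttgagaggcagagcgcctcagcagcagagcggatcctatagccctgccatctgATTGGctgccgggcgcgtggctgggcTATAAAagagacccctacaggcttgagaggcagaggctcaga
Rgs5 (GRCr8, chr13:84380827-84381076, plus strand): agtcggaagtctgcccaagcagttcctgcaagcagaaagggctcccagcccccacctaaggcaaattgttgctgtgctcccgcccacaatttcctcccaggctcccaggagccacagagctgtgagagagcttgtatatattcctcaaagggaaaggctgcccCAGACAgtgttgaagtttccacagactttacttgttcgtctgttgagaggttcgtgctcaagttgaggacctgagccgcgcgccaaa
The 2 windows differ in what they hold. Rgs4 has a TATAAA 42 bases before its start and CCAAT on the other strand at 68 and 232 bases. Rgs5 has none of these and a CAGACA 87 bases before its start. Of 33469 rat promoters of the same length, 34.0% hold CCAAT, 12.9% TATAAA and 17.2% CAGACA on either strand.

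In the receptor system through which endoglin acts, 2 of 13 measured genes fell (15.4%) and none rose. Over all genes 2.88% fell and 5.26% rose, or 8.13% together, and each group below is to be read beside these shares. They are not matched for brightness, and 0% of the dimmest bin of genes passed against 22.2% of the brightest. No share was computed over genes as bright as those of each group. With the refitted background, where 16.3% of all genes passed, 5 of the 13 fell and none rose. In the analysis as designed 10 of the 13 had negative ratios on both arrays, as did 6998 of all 25513 genes. The 2 genes that fell were Eng itself and Gipc1, which encodes a scaffold protein that binds the tail of endoglin, at -0.56 and -0.55. Gipc1 was also lower in untreated cells (-0.39 and -0.63) and turned to 0.44 with median centring. Acvrl1, the kinase receptor that pairs with endoglin, stood at -1.26 in the 1-animal RNA and -0.30 in the pool and did not pass (adjusted p = 0.0611). With the refitted background its pooled ratio was -1.08 and it passed (adjusted p = 0.00151), and its untreated ratios were 0.16 and -0.27. The type II receptor gene Bmpr2 had ratios of 0.00 and 0.25, Tgfbr1 of -0.23 and -0.03, and Tgfbr2 of -0.18 and 0.01, and none of them passed. The median of the 13 genes was -0.13, and 0.13 with median centring, and it was -0.23 in the 1-animal RNA and -0.03 in the pool.

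Among 28 ligands, latency proteins and antagonists of the TGF-beta and BMP family, 6 fell and 2 rose (28.6% together, and 10 and 3 after refitting). Their median of -0.08, with -0.19 in the 1-animal RNA and -0.05 in the pool, became 0.77 with median centring. Ltbp2, a latent TGF-beta binding family member of the elastic fibre, fell by 1.05 with ratios of -1.26 and -0.84 against 0.17 and 0.10 in untreated cells. Fstl3, a secreted binder of activins, fell by 0.83, and the ligand gene Bmp6 fell by 0.53 with ratios of -0.49 and -0.58. The ligand gene Bmp4 rose by 0.65, although its arrays stood apart at 0.96 and 0.34. Nog, the secreted BMP antagonist noggin, rose by 0.54 with ratios of 0.62 and 0.46, and its pooled ratio was 1.5 after refitting. A second Nog probe gave only 0.30 and 0.11. Tgfb1 itself had ratios of -0.43 and -0.02 and did not pass (adjusted p = 0.238).

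Of 15 Smads and feedback regulators, the transducers of the pathway, 1 fell (6.67%), Pmepa1, a membrane protein that is induced by TGF-beta and restrains it. Its ratios were -0.92 and -0.34 against 0.00 and -0.12 in untreated cells. Of 13 targets of BMP and the Smad1 branch 2 rose, Nog and the transcriptional inhibitor gene Id3 (0.27 and 0.50), whose other 2 probes gave means of 0.17 and 0.03. Id1, the classical target of that branch, had ratios of 0.19 and 0.44 and did not pass (adjusted p = 0.227). Of the 13 BMP targets 9 had positive ratios on both arrays and none had negative ratios on both. Of all 25513 genes 10735 were positive on both and 6998 negative on both. The median of their mean ratios was 0.07, but it was 0.12 in the 1-animal RNA and 0.43 in the pool (0.41 refitted), against -0.01 in untreated cells and 0.02 for the mean ratios of all genes. The TGF-beta and Smad3 targets numbered 26, with 6 lower and 3 higher (34.6% together), or 10 lower and 3 higher after refitting. Their median was -0.19, with -0.24 in the 1-animal RNA and -0.11 in the pool, and became 0.73 with median centring. Besides Ltbp2 and Pmepa1 the genes that fell included Col1a1, the main chain of type I collagen (-0.96 and -0.82), and Fn1, fibronectin (-0.39 and -0.75). Those that rose were Bgn, Col3a1 and Timp1, and for all 3 the untreated ratios were at least as high in the pool (1.32, 1.43 and 1.48, against 0.97, 0.67 and 0.53 with endoglin siRNA).

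Smooth muscle contractile genes were among the deepest declines. Of 25 measured, 10 fell and 1 rose (44% together, and 14 and 2 after refitting), and their median of -0.33 turned to 0.74 with median centring. Untreated cells leaned the same way, with a list median of -0.15. Cnn1, the actin-binding protein calponin, had ratios of -2.06 and -0.97 (refitted -2.21) against -0.96 and -0.83 in untreated cells. Flnc, the actin cross-linker filamin C, had ratios of -2.34 and -0.72 (refitted -1.67) against -0.73 and -0.75. In the analysis as designed the pooled value of both genes lay beside the untreated values, and after refitting it lay below them. Myh11, the smooth muscle myosin heavy chain, stood at -1.57 and -1.70 against -0.54 and -1.44 in untreated cells, and a second Myh11 probe gave 0.01 and -0.05. Smaller declines were those of Csrp2 (-0.81 and -0.46), a LIM protein gene with untreated ratios of 0.00 and 0.02, and of Des, desmin (-0.43 and -0.78), whose untreated ratios of -0.53 and -0.99 were as low. The 1 gene that rose was Ldb3, a Z-disc protein, at 0.68 and 0.70. Tagln (0.17 and -0.32) and Actg2 (-0.23 and -0.42) did not pass, and Acta2 was not among the measured genes.

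Several groups of matrix genes followed the same pattern, each with more members lower than higher. Of 21 genes of collagen maturation and cross-linking, 10 fell and 1 rose (52.4% together, beside 2.88% lower and 5.26% higher over all genes), with a median of -0.28 that turned to 0.98 with median centring. Beside Cthrc1 these were led by Tgm2, a protein cross-linking transglutaminase (-1.98 and -1.09, with 0.20 and -0.59 in untreated cells). P4ha3, a prolyl hydroxylase subunit, stood at -0.67 and -0.72. Fkbp10, a collagen chaperone, stood at -0.72 and -0.59. Lox, the lysyl oxidase that cross-links collagen and elastin, stood at -0.96 and -0.38 while its untreated ratios were positive, 0.19 and 0.48. Sparc, a collagen-binding protein, was the member that rose (0.70 and 0.94), with untreated ratios of 0.55 and 1.21. Of 15 elastic fibre genes 6 fell and 1 rose (46.7% together), with a median of -0.39 that turned to 0.44. That median was -0.42 in the 1-animal RNA and -0.04 in the pool, or -0.32 in the refitted pool. They included Fbn1, the microfibril protein fibrillin (-1.09 and -0.45), and the microfibril-associated Mfap4 (-1.19 and -0.46, refitted -1.27) and Mfap5 (-0.89 and -0.58), as well as Emilin1 (-0.52 and -0.46). Fbln5, which guides elastin onto microfibrils, rose at 1.36 and 0.55. Untreated cells had a list median of 0.04 for the elastic fibre genes and -0.04 for the collagen maturation genes.

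Of 18 matricellular and adhesive glycoproteins 7 fell (38.9%) and none rose, or 11 and none after refitting, with a median of -0.35 that turned to 0.68 with median centring. It was -0.37 in the 1-animal RNA and -0.22 in the pool. After Ccn4 came Smoc2, a calcium-binding matricellular protein (-1.05 and -0.42), whose untreated ratios were 0.51 and 0.71. Thbs2, the antiangiogenic thrombospondin, stood at -0.53 and -0.52 against 0.07 and 0.14. Spp1, osteopontin, had ratios of -0.31 and -0.66, far below its untreated ratios of 1.00 and 1.36. Postn (-1.78 and -0.23, refitted -0.98) did not pass until the background was refitted (adjusted p = 0.0999 and then 0.0038). The 16 fibrillar and associated collagens were split, with 4 lower, led by Col1a1, and 2 higher, Col11a1 and Col3a1, or 5 and 5 after refitting. Their median of -0.18 rested on the 1-animal RNA (-0.20), was 0.02 in the pool (-0.04 refitted) and turned to 0.68 with median centring. Col11a1 had ratios of 1.49 and 0.54, but 2 of its 3 other probes were near 0. Col5a1 fell, with ratios of -0.56 and -0.57.

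Small leucine-rich proteoglycans, which coat collagen fibrils and bind growth factors, had more members higher than lower. Together with the hyalectans, 4 of 15 measured members rose (26.7%) and none fell, or 4 and 1 after refitting, although the median of 0.05 was near that of all genes. Fmod, fibromodulin, had ratios of 1.55 and 0.86 against 0.41 and -0.19 in untreated cells. Omd, osteomodulin, had ratios of 1.41 and 0.82, with 1.70 after refitting, against 0.39 and 0.25. Ogn, osteoglycin, stood at 0.90 and 0.63 against 0.18 and 0.41. For these 3 genes all endoglin siRNA values lay above all untreated values. In the analysis as designed so did those of 24.4% of all genes and 82.1% of the genes that passed as higher. Matrix proteases and their inhibitors also had more members higher than lower, 3 and 2 of 27, but 4 and 6 after refitting, with a median of -0.02 that turned to 0.60 with median centring. Bgn, biglycan, differed from the other proteoglycans in that untreated cells had the higher ratios. Decorin (Dcn) had ratios of 0.84 and 0.00 and did not pass (adjusted p = 0.241).

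**Figure D4:**
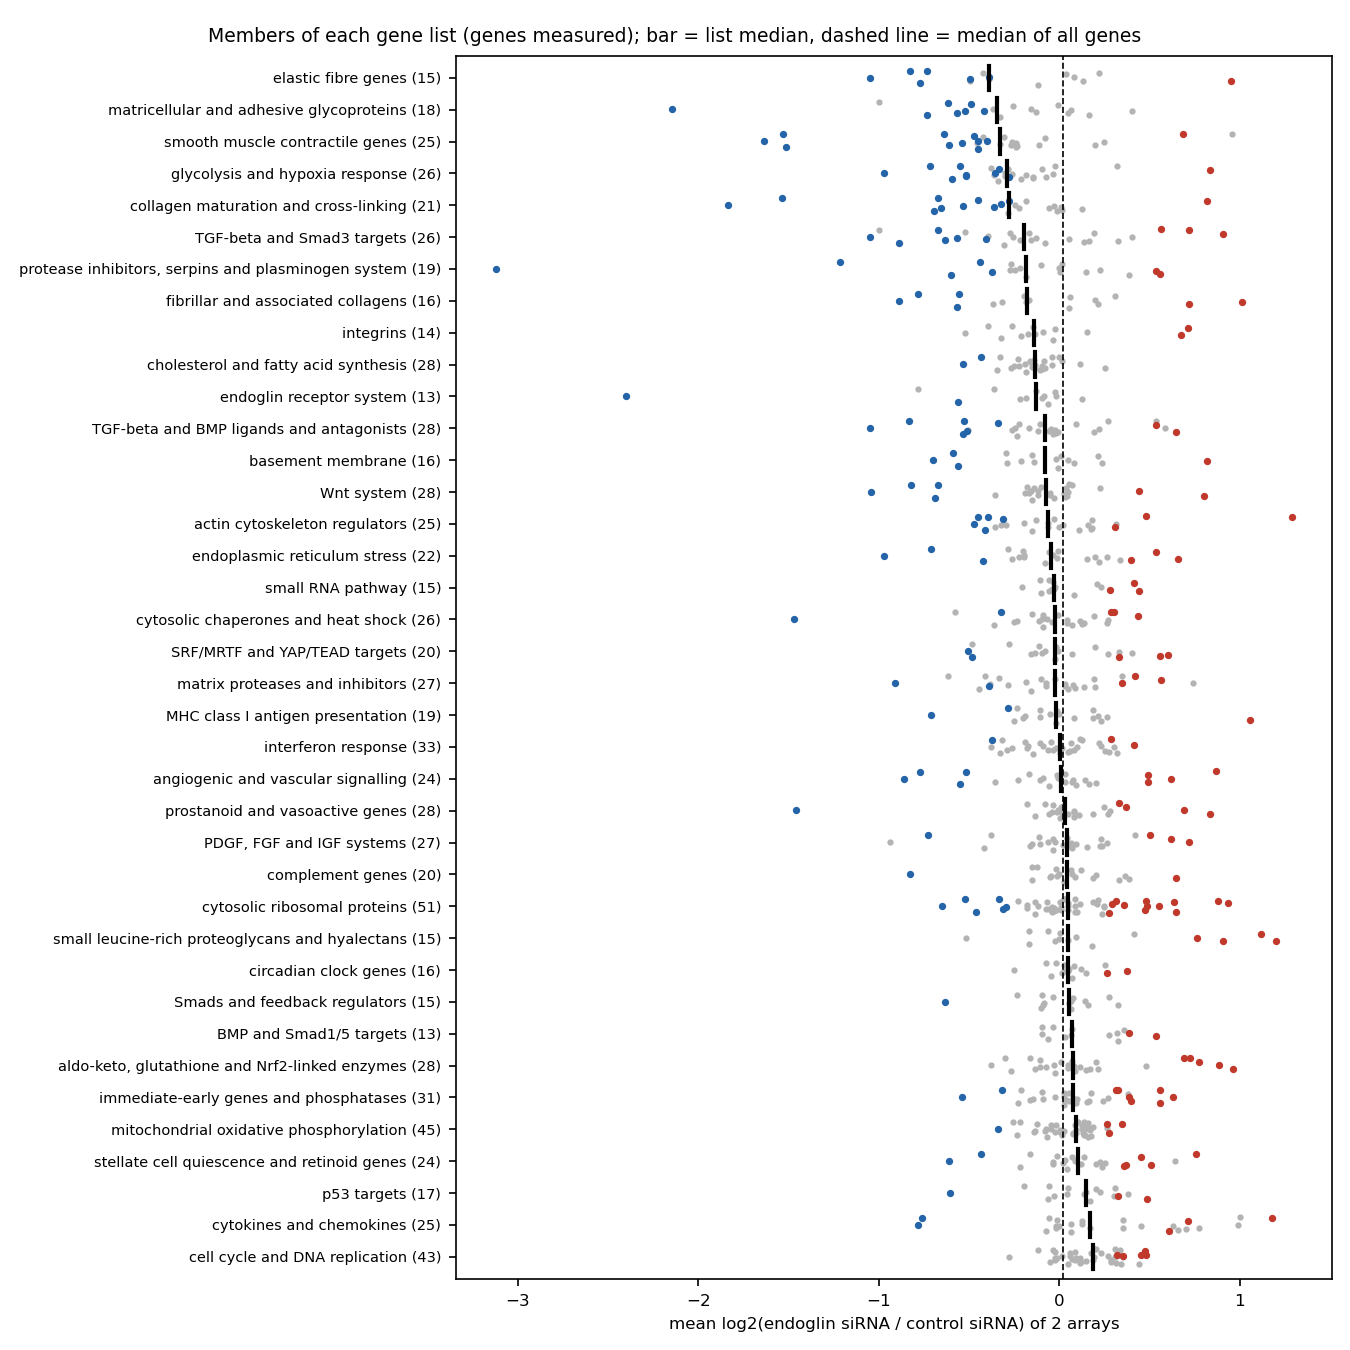
Each point is a gene, placed by its mean log2 ratio of endoglin siRNA to control siRNA over both arrays (horizontal axis), in rows for the gene groups with the number of measured genes in brackets. Red points passed the test as higher, blue points as lower and grey points did not pass, black bars are group medians and the dashed line is the median of all genes (0.02). The medians run from -0.39 for elastic fibre genes to 0.19 for cell cycle genes, and with median centring those of the lowest groups turn positive.

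Genes of vascular signalling went both ways. Of 24 measured, 4 rose and 4 fell (33.3% together), with a median of 0.01. Vegfd and Vegfa, ligands of the VEGF receptors, fell with ratios of -1.23 and -0.49, and of -0.74 and -0.37. A second Vegfa probe gave -0.64 and -0.12. Flt1, the decoy-like VEGF receptor, fell with ratios of -1.07 and -0.47, and -1.0 in the refitted pool, but its second probe gave only -0.46 and -0.10. Kdr, the main signalling VEGF receptor, rose at 1.33 and 0.41, with 1.29 in the refitted pool and untreated ratios of -0.03 on both arrays. Angpt2, which modulates the angiopoietin receptor, rose at 0.92 and 0.33, but its other 2 probes gave means of 0.18 and -0.02. In the Wnt system 4 of 28 genes fell and 2 rose (21.4% together), and their median of -0.07 became 0.14 with median centring. Sfrp1, a secreted Wnt antagonist, fell by 1.04 (-1.30 and -0.78) and the receptor gene Fzd2 by 0.82 (-1.09 and -0.55). Rspo3, a secreted enhancer of Wnt signalling, rose at 0.84 and 0.77 against 0.07 on both untreated arrays, and Wnt5a, a ligand of the beta-catenin-independent branch, rose at 0.44 and 0.45.

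Metabolic genes moved by smaller amounts. Of 26 genes of glycolysis and the hypoxia response 9 fell and 1 rose (38.5% together, and 14 and 1 after refitting), and 22 of the 26 had a negative ratio on both arrays, as did 6998 of all 25513 genes. Their median of -0.29, with -0.33 in the 1-animal RNA and -0.20 in the pool, turned to 0.76 with median centring, and untreated cells had a median of -0.10. The glycolytic enzyme genes Tpi1 (-0.73 and -0.70), Ldha (-0.64 and -0.54) and Pkm (-0.56 and -0.48) hardly differed between the arrays, whereas Ddit4, a stress-induced inhibitor of mTORC1, stood at -1.53 and -0.40. Adm, the vasodilator adrenomedullin, was the member that rose (0.89 and 0.78), with untreated ratios of 0.47 and 0.74. Of 28 genes of cholesterol and fatty acid synthesis, 2 fell, Hmgcs1 (-0.54 and -0.53) and Idi1 (-0.35 and -0.51, but -0.09 on both arrays with its second probe), both in the mevalonate pathway. That is 7.14%, near the 8.13% of all genes, and 6 fell after refitting. Although 23 of the 28 had negative ratios on both arrays, the median was only -0.14 (-0.15 in the 1-animal RNA and -0.08 in the pool), and median centring turned it to 0.63. Enzymes of detoxification went the other way, with 5 of 28 aldo-keto, glutathione and Nrf2-linked enzymes higher (17.9%) and none lower, or 6 and 1 after refitting, and a median of 0.07. Akr1c15, an aldo-keto reductase, had ratios of 1.29 and 0.63 (refitted 1.46) and was below 0 in untreated cells (-0.49 and -0.24). Ephx1, the microsomal epoxide hydrolase, had ratios of 0.76 and 0.79 against -0.18 and -0.24. Akr1b8 stood at 0.96 and 0.43, and Gsta1, a glutathione transferase, at 0.88 and 0.90 with untreated ratios as far apart as 0.05 and 0.77.

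Among the genes that rose, Tm4sf1, a small membrane protein of the tetraspanin-like L6 family, hardly differed between the arrays. Its ratios were 1.22 and 1.25 against 0.11 and -0.02 in untreated cells, a 2.35-fold higher level (standard error of the mean log2 ratio 0.06, adjusted p = 0.000903). The 250 bases before its start are shown because it was the gene with a symbol that was 2-fold higher on both arrays and also passed against untreated cells, with the same motifs in capitals.
Tm4sf1 (GRCr8, chr2:143616177-143616426, minus strand): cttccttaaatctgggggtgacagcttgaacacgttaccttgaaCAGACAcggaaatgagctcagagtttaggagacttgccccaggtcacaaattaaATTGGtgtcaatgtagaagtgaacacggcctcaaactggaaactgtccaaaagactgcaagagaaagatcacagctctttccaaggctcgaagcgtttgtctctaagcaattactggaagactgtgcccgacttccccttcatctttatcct
It holds a CAGACA 206 bases before the start and a CCAAT on the other strand at 152 bases. Of the 25 genes with the highest mean ratio, 22 had a promoter sequence, and 12 of these held CCAAT, 3 TATAAA and 3 CAGACA. Of the 25 with the lowest, 15 had one, and 8 held CCAAT, 1 TATAAA and 2 CAGACA. Of all 33469 promoters 34.0%, 12.9% and 17.2% held these motifs. Those shares count promoters, whereas a gene was counted when any of its promoters held the motif, so nothing is read from a difference.

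Tmsb4x, the actin-sequestering peptide thymosin beta 4, had the highest mean ratio among genes with a symbol (1.39 and 1.20), but untreated cells stood at 1.02 and 0.91. Cx3cl1, the membrane-bound chemokine fractalkine, had ratios of 1.23 and 1.13, while its other probe gave 0.22 and 0.05. Klf15, a Krüppel-like transcription factor, had ratios of 0.93 and 0.84 against 0.30 and 0.27 in untreated cells. Oit3, a secreted zona pellucida domain protein of the liver, had ratios of 0.94 and 0.83 against -0.19 and -0.43. The 2 highest mean ratios among all genes that passed belonged to entries without a current gene symbol. TC562296, described in the array file as unknown, stood at 2.46 and 1.96, with 0.37 and 0.27 in untreated cells. TC551367 stood at 1.80 and 1.65, with 0.52 and 0.10.

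Cell cycle and DNA replication genes were shifted by small amounts. Of 43 measured, 5 rose (11.6%, beside 5.26% of all genes) and none fell, while 10 rose and 1 fell with the refitted background, and 31 had a positive ratio on both arrays, as did 10735 of all 25513 genes. The median was 0.19, against -0.03 in untreated cells. Pcna, the sliding clamp of DNA polymerases, had ratios of 0.28 and 0.67, and Tyms, thymidylate synthase, of 0.32 and 0.32. The inhibitor gene Cdkn1b was among the 5 as well (0.47 and 0.44). Of 51 cytosolic ribosomal protein genes 12 rose and 6 fell (35.3% together, and 18 and 6 after refitting). The highest, Rps6 (1.03 and 0.85) and Rps23 (0.85 and 0.92), had untreated ratios of similar size in the pool (0.95 and 1.14). Rps15 fell at -0.73 and -0.57 with untreated ratios of -0.34 and -0.69, but its second probe gave -0.15 and 0.06.

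The stellate cell label was borne out by 13 of 14 markers above background on both arrays, among them Lrat, Reln, Des and Cygb, and the exception was Gfap. Of the stellate markers Des, Col1a1 and Rgs5 fell, and Cygb, Tcf21 and Vim rose. For Cygb (0.72 and 0.79) the untreated ratios were at least as high, 0.79 and 1.21. For Des (-0.43 and -0.78) they were as low, -0.53 and -0.99. For Col1a1 (-0.96 and -0.82) they were nearer 0, -0.25 and -0.14, and for Rgs5 they were positive. Hepatocyte markers above background numbered 8 of 17: Apoa1, Tf, Fgb, Fgg, Hpx, Cyp2e1, Hnf4a and Apoc3 were above it, and 9 others, Alb and Ahsg among them, were not. Cyp2e1, a cytochrome P450, rose with ratios of 0.56 and 0.40. Of 15 markers of portal fibroblasts and mesothelial cells 9 were above background, among them Msln, Wt1 and Thy1, and none of the 13 tested passed. Of 11 cholangiocyte markers 6 were above background, namely Krt7, Sox9, Cldn4, Spp1, Ggt1 and Aqp1. Krt19 and Epcam were among those that were not. Krt7 had net intensities of 1128 in Cy5 and 991 in Cy3 of the pool, and 54 and 2 in the 1-animal RNA. Of the 7 cholangiocyte markers tested 2 fell and 0 rose (28.6%, beside 8.13% of all genes that passed). Of 13 lymphocyte markers 3 were above background. Macrophage markers were present, 13 of the 17 with a probe, at a summed net intensity of 80559 in Cy5 and 23839 in Cy3 for the 1-animal RNA and of 15943 and 4778 for the pool. These sums are not normalized between dyes, and Cy5 was the brighter dye in both. Their median ratio was 0.31 and -0.01, and 1 of 17 passed. In untreated cells the macrophage list had a median ratio of 0.83. Of 14 endothelial markers with a probe 7 were above background on both arrays, namely Cdh5, Vwf, Erg, Fcgr2b, Gpr182, Kdr and Oit3, of which Kdr and Oit3 rose. The other 7, Pecam1, Tek, Tie1, Stab2, Lyve1, Emcn and Ptprb, were not. On a single array, Pecam1 was above background in both dyes of the pool and Tie1 in both dyes of the 1-animal RNA. Tek was above it only in Cy5 of the pool, and Lyve1 and Ptprb only in Cy5 of the 1-animal RNA. In these RNA mixtures fewer cells of a type and less RNA per cell cannot be told apart, and the part of other cell types in the results was not tested.

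Set directly against untreated cells, 22 genes (0.0862%) differed, 9 higher and 13 lower with endoglin siRNA, and 2100 had an unadjusted p under 0.05. With the refitted background 198 genes passed, and without 1 array at a time between 0 (untreated pool left out, 1236 at an unadjusted p under 0.05) and 431 (endoglin siRNA pool left out). Of the 22, 15 had a symbol, and 11 of the 15 had also passed against control siRNA, 6 higher and 5 lower. The 5 lower were Spp1, Rgs4, Hsp90ab1, the chemokine gene Cxcl12 and Enpp1, an ectoenzyme that makes pyrophosphate. Cxcl12 had endoglin siRNA ratios of -0.61 and -0.91, but -0.27 and -0.12 with its second probe. The 6 higher were Oit3, Tm4sf1, Padi3 and Padi4 (protein arginine deiminases), Ephx1 and Slpi, a leukocyte protease inhibitor. The other 4, Fcrl2, C1qa, Ctss and Cd74, are genes of immune cells and had ratios near 0 with endoglin siRNA apart from Fcrl2 in 1 animal (0.51), while their untreated ratios lay between 0.87 and 1.81. With the refitted background the untreated pool stood at 2.62 for Fcrl2, 1.80 for C1qa, 1.56 for Ctss and 1.67 for Cd74. Eng was lower than in untreated cells by a difference of -2.02 that did not pass (adjusted p = 0.178), and it passed with the refitted background (-2.09, adjusted p = 0.0336). In the deposited table of processed ratios both untreated arrays carry the reverse sign, and their direction here was taken from the labelled dyes. With that sign turned 2926 genes differed from untreated cells, 1690 higher and 1236 lower, including 12 of the 15 with a symbol. The difference of Eng was then -2.79 (adjusted p = 0.00595). The differences of Spp1, Fcrl2, C1qa, Ctss and Cd74 turned from negative to positive (0.69, 2.02, 1.23, 1.32 and 0.91), and those of Padi3, Padi4 and Slpi no longer passed.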

How the data were processed

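Total RNA was amplified, labelled with Cy5 or Cy3 and hybridized to Agilent 4x44K rat arrays, 4 on 1 slide. Per the file headers, the authors extracted mean and local background signals as scanner intensity values with Agilent Feature Extraction 9.5.1.1, and the deposited log ratios set Cy5 over Cy3 on the log10 scale. Log10 ratios are also in the deposited value table, with the sign of both untreated arrays opposite to the scanner files.

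Background was corrected from the mean and local median signals (normexp in limma 3.58.1 under R 4.3.3, offset 50). Ratios were turned to log2 and normalized by loess within each array, with control spots at weight 0. Spots that the deposited flags mark as outliers were left out (282 and 289). Replicate spots were averaged. Probes were kept where 2 or more arrays had 1 or both channels well above background (29845 of 41012). The brightest probe stood for each name, and 12100 of 25513 names matched a RefSeq symbol (GRCr8 table) by accession (6596), symbol (3231) or synonym (2273). Promoter sequences are those of RefSeq for GRCr8.

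Groups followed the labels. The test was limma's moderated fit of 2 group means over all 4 arrays, adjusted by Benjamini-Hochberg over all genes at 0.05. The self-test on simulated data recovered 97% of 100 genes shifted by 0.5 and 100% of 100 shifted by 1, with 21 false calls. Its noise was independent between genes and arrays, and its shifts were equal on both endoglin siRNA arrays. The real arrays differed in the size of their ratios, so the self-test checks the code and does not give the recovery in these data. The members and gene lists were chosen with earlier results of these data known, and lists are described by counts and medians without a test. Named genes were Eng, the 25 lowest and 25 highest mean ratios that passed and carry a symbol, genes with a symbol that were 2-fold on both arrays, up to 6 members per list that passed (or the 2 largest), and genes that passed against untreated cells. Genes named outside this rule were chosen after their values were seen. The alternatives were other background fits, signals, normalizations, filters, probe rules, covariates and subsets of arrays, and, chosen after seeing the data, the untreated ratios with their sign turned. The number of arrays limits the precision of every value.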

Additional observations from a re-analysis of the deposited data

Results flagged for a closer look

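The effect of the endoglin siRNA and that of leaving cells untreated, both taken against control siRNA, differed by limma's test of the difference for 15 genes with a symbol. Differences are the endoglin siRNA ratio minus the untreated ratio on the log2 scale, and adjusted p-values lay between 0.0227 and 0.0476. The differences below 0 were those of Spp1 (-1.67), Rgs4 (-1.59), Fcrl2 (-1.51), Hsp90ab1 (-1.19), C1qa (-1.09), Cxcl12 (-1.04), Ctss (-1.04), Cd74 (-0.95) and Enpp1 (-0.94). The differences above 0 were those of Padi4 (0.75), Slpi (0.93), Ephx1 (0.98), Padi3 (1.16), Tm4sf1 (1.19) and Oit3 (1.19). For Tm4sf1 and Hsp90ab1 the endoglin siRNA arrays carried the difference, with untreated ratios of 0.11 and -0.02, and of -0.27 and -0.29. For Cd74 the untreated arrays carried it (0.99 and 0.87, or 1.67 in the refitted untreated pool, against -0.01 and -0.03 with endoglin siRNA). Spp1 and Rgs4 had opposite signs in the 2 groups on all arrays. These results rest on the direction of the untreated arrays as the labels give it. With that direction turned the differences of Spp1, Fcrl2, C1qa, Ctss and Cd74 were above 0, and those of Padi3 (0.36), Padi4 (0.28) and Slpi (0.18) did not pass.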

How the results depend on the processing

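The number of genes that passed, 2075, depended on the processing. It was 4503 without background correction, 4147 with the background fitted without disturbed spots, 1162 with the endoglin siRNA arrays alone, and between 882 and 2672 with 1 array left out. By limma it was 0 with Feature Extraction log ratios, the deposited value table, scaling between arrays or median centring, where 7102, 7099, 1492 and 6178 genes had an unadjusted p under 0.05. The count of 2-fold genes (20) became 72, 57, 302, 300, 2383 and 8 under no background correction, the refitted background, Feature Extraction, the table, median centring and scaling, and lay between 20 and 155 with 1 array left out. Its split of 6 higher and 14 lower became 24 and 48, 18 and 39, 166 and 136, 165 and 135, 2383 and 0, and 1 and 7 in that order. The contrast with untreated cells (22) gave 170, 198, 0, 0, 0 and 0 in the same order (2776, 2771, 259 and 361 at an unadjusted p under 0.05 for the last 4), 47 without the filter on dim probes, and between 0 and 431 with 1 array left out. With the sign of the untreated arrays turned, which was tried only after the data had been seen, it was 2926, including 19 of the 22. Same-numbered arrays had correlated deviations (0.293), but 2 pairs of which the labels do not say that they share animals do not establish a pairing. With the RNA source as a replicate block 3954 genes passed, and 267 in the contrast.

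Eng did not pass with Feature Extraction log ratios (-2.44, adjusted p = 0.0746), the deposited table (-2.44), median centring (-1.34, adjusted p = 0.212) or scaling (-3.53, adjusted p = 0.433). Of 96 other named genes that passed, none did under these 4 settings, 25 were lost without the 1-animal array, 15 without the pooled one, 12 without either untreated array and 6 with the median over probes, and all 96 were kept with the block, the refitted background, no background correction and no filter. Median centring turned 32 of them: Bag3 to 0.93, Bmp6 0.33, Calr 0.48, Col1a1 0.45, Col5a1 0.70, Csrp2 0.54, Cxcl12 0.62, Des 0.64, Emilin1 0.79, Enpp1 0.28, Fbn1 0.47, Fkbp10 0.33, Fn1 0.69, Fstl3 0.23, Fzd2 0.037, Gipc1 0.44, Hmgcs1 0.62, Idi1 0.65, Junb 0.43, Ldha 0.64, Lox 0.69, Mfap5 0.031, P4ha3 0.45, Pkm 0.76, Pmepa1 0.32, Rgs4 0.24, Rps15 0.37, Smoc2 0.67, Spp1 0.52, Thbs2 0.73, Tpi1 0.47 and Vegfa 0.27.

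Median centring also moved the list medians, to 0.13 for receptors, 0.74 for contractile genes, 0.98 for collagen maturation, 0.44 for elastic fibre genes, 0.68 for matricellular proteins, 0.76 for glycolysis and 0.90 for the cell cycle. Scaling gave -0.49 for contractile genes, -0.47 for collagen maturation and 0.31 for the cell cycle. Feature Extraction and the table gave -0.38 for receptors and 0.29 for the cell cycle, which stood at 0.23 with the refitted background and 0.12 with the median over probes. Without the filter the matricellular median was -0.15. With 1 array left out the medians ranged from -0.42 to -0.042 for elastic fibre genes, from -0.37 to -0.22 for matricellular proteins and from 0.15 to 0.20 for the cell cycle. The cause of these changes was not tested.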

Other observations

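Other groups, outside the endoglin pathway and the matrix, are to be read beside the 5.26% of all genes that rose and the 2.88% that fell. These shares are not matched for brightness. Of 31 immediate-early genes and phosphatases 7 rose and 2 fell (29% together), with a median of 0.08. The transcription factor gene Klf6 rose at 0.75 and 0.51, but its second probe gave only 0.14 and 0.22. Dusp6, the phosphatase that shuts off ERK, rose at 0.59 and 0.52. Junb fell at -0.58 and -0.50 with untreated ratios of -0.38 and -0.64. Of 22 genes of endoplasmic reticulum stress 3 rose and 3 fell (27.3% together, and 4 and 7 after refitting the background). Ddit3, the stress-induced factor CHOP, rose at 0.74 and 0.58 against -0.07 and -0.23 in untreated cells, and the chaperone gene Calr fell at -0.79 and -0.63 against -0.43 and -0.51. Among 25 cytokines and chemokines 3 rose and 2 fell (20% together). Csf1, the macrophage growth factor, rose at 0.76 and 0.45 against -0.11 and -0.26. Il33, an alarmin, fell at -1.10 and -0.46, but its second probe gave only -0.58 and -0.08. Ccl2 had a ratio of 1.95 in the 1-animal RNA and 0.05 in the pool and did not pass (adjusted p = 0.233). Of 45 genes of mitochondrial oxidative phosphorylation 3 rose and 1 fell, with a median of 0.10. These 8.89% are near the 8.13% of all genes that passed.

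The other 2-fold entries without a symbol were TC541235 (-2.54 and -1.67), TC545836 (-2.17 and -1.0), A_44_P546267 (-1.26 and -1.15) and AW914028 (1.58 and 1.01), none of which has a gene name in the array files.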
